A study of Homo sapiens with 12 samples.

Results

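The replication-dependent histone genes were examined in cell lines that the study describes as ovarian cancer lines, after 6 h with quinacrine (QC), an acridine antimalarial drug. Members were taken by symbol: H1-1 to H1-5 and every symbol that starts with H2AC, H2BC, H3C or H4C followed by digits. This rule found 75 of the 60669 gene IDs in the count table, 5 of linker histone H1, 20 of H2A, 21 of H2B, 15 of H3 and 14 of H4. RefSeq calls 12 of them pseudogenes. On the genome, 60 members lie on chromosome 6, 13 on chromosome 1 and 2 elsewhere.

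The study asked how QC changes RNA levels in chemosensitive lines and in their drug-resistant derivatives. Poly(A) RNA was sequenced from 12 libraries, 1 per line and treatment, and the study describes all 6 lines as human and from ovarian cancer. The chemosensitive lines were HeyA8, SKOV3 and OV2008, and the resistant lines were HeyA8_MDR, described in the study's methods as carboplatin-resistant, SKOV3_TR, taxol-resistant, and OV2008_C13, cisplatin-resistant and derived from OV2008. Each line received 8 µM QC for 6 h or buffer alone, called vehicle here. No library was repeated within a line. The 3 lines of a group stand in for replicates, and the p-values below measure the spread of the response between lines. The 6 lines are 3 pairs of a parent and its resistant derivative. Tests over 6 lines count both lines of a pair as separate, so responses shared within a pair can make these p-values too small.

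Histones package DNA: pairs of H2A, H2B, H3 and H4 form the nucleosome core, and H1 binds the DNA between cores. The replication-dependent genes are clustered, mostly lack introns and are read mainly in S phase, when new DNA needs new nucleosomes. Their mRNAs end in a short stem-loop bound by SLBP in place of a poly(A) tail. The mRNAs of replication-independent histones such as H2AZ1 and H3-3B are spliced and polyadenylated. This need not hold for every gene listed as such below. The libraries were made from poly(A) RNA, so the counts come from histone mRNAs that were recovered in spite of the missing tail or from polyadenylated forms, and these sources cannot be told apart in counts per gene.

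The stem-loops of the 10 members described in full below are shown because this end sets histone mRNAs apart from polyadenylated ones. Each was read from a GENCODE v44lift37 transcript in the mRNA sense, and the 16 bases of the stem and loop are in capitals.
H1-2: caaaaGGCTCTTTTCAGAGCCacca
H2AC6: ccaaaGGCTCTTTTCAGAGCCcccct
H2AC11: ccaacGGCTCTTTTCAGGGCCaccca
H2BC5: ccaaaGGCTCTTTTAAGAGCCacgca
H2BC11: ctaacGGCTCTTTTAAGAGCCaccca
H2BC12: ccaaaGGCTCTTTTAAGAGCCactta
H2BC21: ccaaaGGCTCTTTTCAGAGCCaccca
H3C6: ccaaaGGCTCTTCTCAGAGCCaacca
H4C8: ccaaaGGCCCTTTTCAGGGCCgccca
H4C9: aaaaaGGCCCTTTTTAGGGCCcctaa

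The stem-loop was found in 62 of the 63 members that RefSeq does not call pseudogenes, in 1 pseudogene, and in 25 of 19770 other protein-coding genes (0.126%). The form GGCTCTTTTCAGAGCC stands in 37 members, and 10 forms occur in all. For 18 members GENCODE also lists a long form, a transcript that runs at least 100 bases past the stem-loop or that is spliced and lacks it. These 18 members hold 52.3% of all member counts. Among the 10 members above, H2AC6, H2BC5, H2BC11, H2BC21, H3C6 and H4C8 have a long form in GENCODE, and H1-2, H2AC11, H2BC12 and H4C9 have none there. The RefSeq span of H2BC12, chr6:27138293-27146858, is longer than its only GENCODE transcript of 495 bases.

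Promoters were compared over the 250 bases before the RefSeq start for the 57 members that have one, with both strands searched. The octamer ATTTGCAT was present in 11 of 14 H2A and 12 of 16 H2B promoters, in 1 of 11 H3 promoters (H3C4, whose first RefSeq start is also that of H2AC7, so that 1 promoter is counted under both) and in 0 of 5 H1 and 0 of 11 H4 promoters, against 1.66% of 27305 RefSeq promoters. CCAAT was present in 48 of the 57, among them 2 of 11 H4 promoters, against 33% of all promoters, and TATAAA in 38 of the 57 against 11.1%. Below are the last 150 bases before the start, with these letters and their reverse complements in capitals, for the divergent genes H2BC11 and H2AC11, which stand back to back, and for H4C8, the tested H4 gene with the largest fitted change. The coordinates are on GRCh38.p14: H2BC11 chr6:27132796-27132945, minus strand, H2AC11 chr6:27132893-27133042, plus strand, and H4C8 chr6:26285535-26285684, minus strand.
H2BC11: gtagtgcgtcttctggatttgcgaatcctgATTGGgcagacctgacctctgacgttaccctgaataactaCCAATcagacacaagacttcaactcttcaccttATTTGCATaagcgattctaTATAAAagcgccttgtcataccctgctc
H2AC11: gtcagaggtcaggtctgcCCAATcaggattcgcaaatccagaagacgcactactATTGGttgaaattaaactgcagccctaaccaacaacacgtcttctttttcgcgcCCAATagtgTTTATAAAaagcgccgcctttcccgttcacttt
H4C8: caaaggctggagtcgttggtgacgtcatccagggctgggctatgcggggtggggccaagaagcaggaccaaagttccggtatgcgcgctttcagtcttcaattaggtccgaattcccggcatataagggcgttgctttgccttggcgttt

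The libraries held between 17782556 and 30585059 counts. Of 6 epithelial and ovarian carcinoma markers (KRT8, KRT18, EPCAM, PAX8, WT1 and MUC16), 0 changed with QC over the 6 lines (edgeR's quasi-likelihood test, unadjusted p under 0.05), and KRT8 lay at 211 CPM (CPM are counts relative to library size, here scaled by TMM) or more in all 12 libraries. EPCAM, however, was at 0.0519 CPM with vehicle and 0 with QC in HeyA8_MDR, and MUC16 was at 0 in the HeyA8 QC and HeyA8_MDR vehicle libraries. WT1 was at 4.79 CPM or less in all 12 libraries, and PAX8 lay at 7.56 to 24.8 CPM in the OV2008 lines against 234 to 480 CPM in the other 4 lines. The HeyA8 library with QC stands apart: 285 genes were at least 8-fold higher in HeyA8_MDR than in HeyA8 with vehicle, and in the HeyA8 QC library they had moved toward their HeyA8_MDR level by a median of 39.6% of the gap. The 218 genes at least 8-fold lower in HeyA8_MDR had moved by 52.7%. In the other 5 QC libraries the medians toward the partner line were between 0 and 31.2%. The main counts and means are therefore also given without HeyA8.

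The members were a small part of each library, from 0.00409% to 0.0295% of its counts, and 36308 counts in all. H2B genes took 42.8% of these counts, H2A genes 22.8%, H1 14.1%, H4 13.3% and H3 6.95%. The 10 members with the most counts held 82.5%, and 17 members had 0 counts in all 12 libraries. H1-2 alone took 96.6% of the H1 counts and H2AC6 took 70.1% of the H2A counts, while H2BC12 took 30.8% of H2B, H3C6 48.5% of H3 and H4C9 51.5% of H4. The low totals leave few counts on most genes, and counts on near-identical copies are uncertain because reads can fit more than 1 of them. H3C15 and H4C15 have no 50-base stretch that is absent from all other genes. H2BC19P has none either, but an annotated gene overlaps it on its own strand and counts as another gene here.

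Summed over all 75 members, the level was higher with QC in 5 of 6 lines. In HeyA8 it went from 132 CPM with vehicle to 271 CPM with QC (2.05-fold), in HeyA8_MDR from 119 to 220 CPM (1.85-fold), and in SKOV3_TR from 53.3 to 83.1 CPM (1.56-fold). In OV2008 it went from 44 to 172 CPM (3.9-fold) and in OV2008_C13 from 104 to 264 CPM (2.54-fold). SKOV3 was the exception, with 39.4 CPM with vehicle and 36.6 CPM with QC. Its log2 ratio was -0.11, with an exact 95% interval from -0.25 to 0.03 that covers counting error only. The mean log2 change was 0.96 ± 0.69 (SD, n = 6 lines), 0.96 ± 1.04 in the 3 sensitive and 0.96 ± 0.36 in the 3 resistant lines, and it was 0.94 without HeyA8. By family the mean was 0.96 for HeyA8, 0.27 for SKOV3 and 1.65 for OV2008. A sum over members has no test here. Scaled to the ribosomal protein mRNA RPLP0 in place of TMM, which shifts all genes by a mean of 0.18 on the log2 scale and SKOV3 by 0.29, SKOV3 had a log2 ratio of 0.18.

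**Figure D1:**
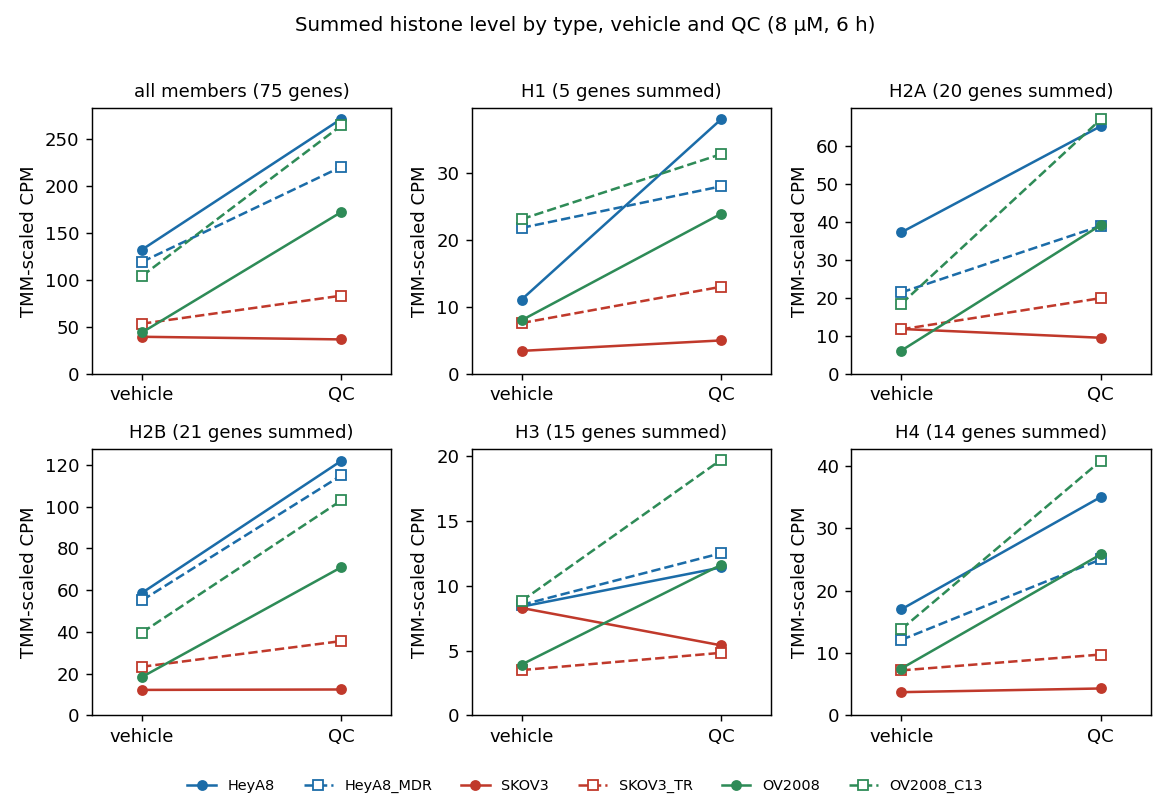
Summed level of all members and of each histone type in TMM-scaled CPM (vertical axis, linear from 0) with vehicle and with QC in the 6 cell lines, 1 library per point; filled circles with solid lines are sensitive lines and open squares with dashed lines resistant lines. For all members the largest ratio is that of OV2008, from 44 to 172 CPM, and SKOV3 is nearly level at 39.4 and 36.6 CPM.

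H1, which is H1-2 for nearly all its counts, was higher with QC in 6 of 6 lines, by a mean of 0.92 ± 0.60 on the log2 scale. The increase was 3.41-fold in HeyA8 and 2.97-fold in OV2008. It was 1.45-fold in SKOV3, 1.28-fold in HeyA8_MDR, 1.7-fold in SKOV3_TR and 1.42-fold in OV2008_C13. H1 was the type whose mean differed most between the groups, 1.29 ± 0.67 in sensitive and 0.54 ± 0.21 in resistant lines (SD, n = 3).

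The H2A sum ran from 0.809-fold in SKOV3 to 6.33-fold in OV2008, with a mean log2 change of 1.11 ± 1.03. It was 1.75-fold in HeyA8, 1.81-fold in HeyA8_MDR, 1.7-fold in SKOV3_TR and 3.63-fold in OV2008_C13. The H2B sum had a mean of 1.01 ± 0.66. It was 2.07-fold in HeyA8, 2.09-fold in HeyA8_MDR, 1.01-fold in SKOV3, 1.52-fold in SKOV3_TR, 3.84-fold in OV2008 and 2.6-fold in OV2008_C13.

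The H3 sum had the smallest mean, 0.59 ± 0.74, and was lower with QC in SKOV3, with a log2 ratio of -0.61 and a counting interval from -0.96 to -0.28. In the other 5 lines the H3 ratio lay between 0.44 in HeyA8 and 1.55 in OV2008. The H4 sum was higher in 6 of 6 lines, by 0.21 in SKOV3 to 1.77 in OV2008 and a mean of 1.01 ± 0.61. Among the 5 types, the order of the means was thus H2A, H2B and H4, H1 and H3. The SDs are between lines and do not measure differences between types, which share the same lines and were not tested. Line by line, the H3 ratio was below the H2A and H2B ratios in every line. It was not below H1 in HeyA8_MDR (0.55 against 0.36) or H4 in SKOV3_TR (0.46 against 0.43). Without HeyA8 the means were 0.75 for H1, 1.17 for H2A, 1.0 for H2B, 0.62 for H3 and 1.0 for H4 (n = 5 lines), and the H1 mean of the 2 remaining sensitive lines was 1.05. With RPLP0 scaling the H2A ratio in SKOV3 was -0.02 and the H3 ratio -0.32.

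The type means were also taken without the member that holds the most counts. Without H2AC6 the H2A mean was 1.36 ± 0.90, and without H2BC12 the H2B mean was 1.15 ± 0.77. Without H3C6 the H3 mean was 0.62 ± 0.36, and without H4C9 the H4 mean was 1.13 ± 0.99. These H2A, H2B and H3 sums were higher with QC in 6 of 6 lines, and the H4 sum in 5. The lower H2A and H3 sums in SKOV3 were thus not seen without H2AC6 (242 to 163 counts there) and H3C6 (171 to 90). Few counts remain in SKOV3 without these genes. H1 is different, since only 176 counts remain without H1-2, with a mean of 0.26 ± 1.05. By location, the 37 members at chr6:25726063-26322292 (GRCh38.p14) held 53% of the counts and had a summed mean change of 0.96 ± 0.74. The 5 at chr6:27132316-27147562 held 28.1% and had 0.96 ± 0.66, the 18 at chr6:27807167-27893891 held 4.97% and had 0.75 ± 0.58, and the 10 at chr1:149782689-149887965 held 12.6% and had 1.21 ± 0.94. The 3 members at chr1:228457364-228464575 had 0 counts.

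Of the 75 members, 27 passed the filter on low counts and these 27 held 98.1% of the member counts. The other 48 had at most 54 counts each over 12 libraries. Over the 6 lines, 17 of the 27 tested members rose with QC and 0 fell (edgeR's quasi-likelihood test, cell line as a term, unadjusted p under 0.05). Over all 18720 genes tested, 7.99% rose and 7.18% fell by the same rule. The median log2 change was 0.99 over the 27 members and 0.000 over all genes.

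None of the 27 had an adjusted p under 0.05, the smallest being 0.141, and 0 of 18720 genes did. DESeq2 gave 17 risen members with an unadjusted p under 0.05, against 8.05% of all genes, and 9 with an adjusted p under 0.05, as had 518 of all 18720 genes. A member that passed the filter only through its QC libraries had to differ, so the members were also counted among the genes that pass on the 6 vehicle libraries alone: 14 of 20 such members rose, against 8.06% of 16082 such genes. Leaving out 1 line at a time gave 12 to 16 members, against 5.23 to 7.88% of all genes, with 12 of 26 without OV2008_C13 and 13 of 27 without HeyA8. Without the cell line term, 5 members rose, against 0.411% of all genes.

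**Figure D2:**
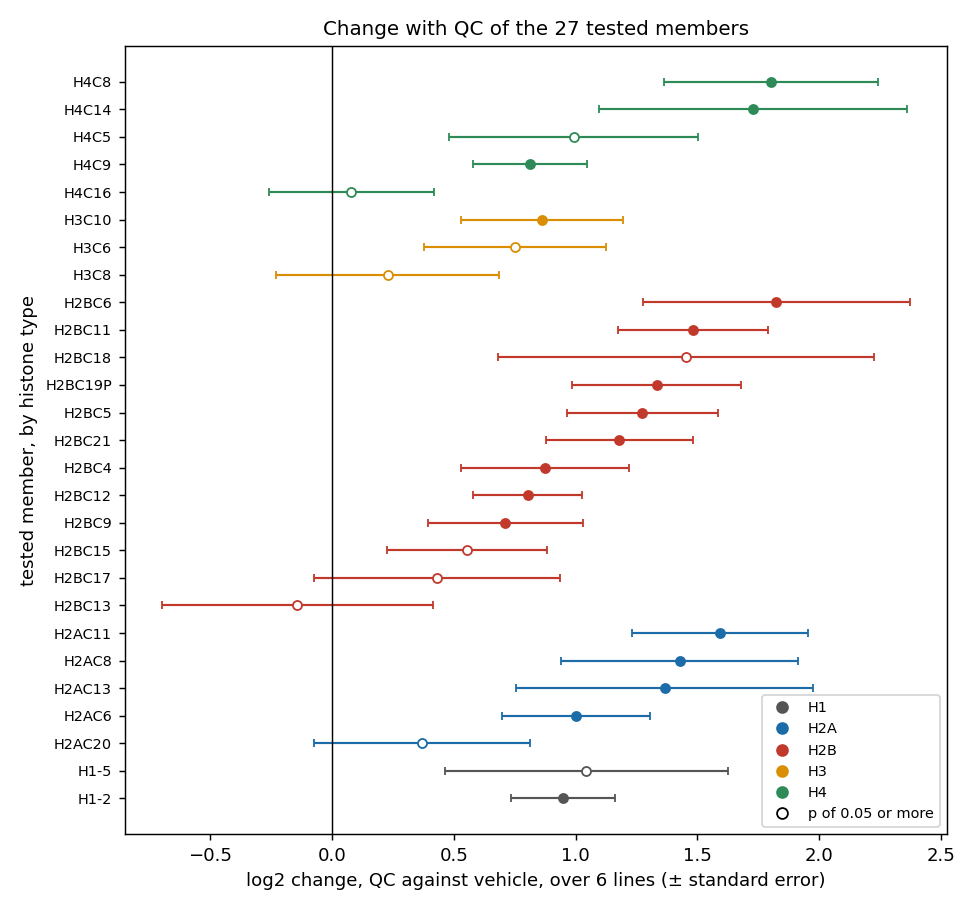
Log2 change with QC over the 6 lines (horizontal axis) for the 27 tested members (vertical axis, grouped and coloured by histone type), as fitted by edgeR, with bars of 1 standard error; filled points have an unadjusted p under 0.05. The values run from -0.14 for H2BC13 to 1.82 for H2BC6, neither of which passed the filter on vehicle libraries alone, and 26 of 27 points lie above 0.

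H1-2 (ENSG00000187837.4, chr6:26055740-26056470) encodes a linker histone and had the most counts of the H1 genes. With vehicle it lay at 10.4 CPM in HeyA8, 21.4 in HeyA8_MDR, 3.26 in SKOV3, 7.41 in SKOV3_TR, 7.28 in OV2008 and 22.4 in OV2008_C13. With QC it lay at 36.7 CPM in HeyA8, 26.6 in HeyA8_MDR, 4.99 in SKOV3, 12.8 in SKOV3_TR, 23 in OV2008 and 31.8 in OV2008_C13. Every line was higher with QC, although the vehicle and QC libraries overlap between lines. The fitted log2 change over 6 lines was 0.95 (SE 0.213, unadjusted p = 0.000752, adjusted p = 0.141, edgeR's quasi-likelihood test).

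H2AC11 and H2BC11 encode an H2A and an H2B and start 248 bases apart on opposite strands of chromosome 6 (H2AC11 at chr6:27133043-27133535, H2BC11 at chr6:27132316-27132795). H2AC11 lay with vehicle at 4.21 CPM in HeyA8, 3.12 in HeyA8_MDR, 0.92 in SKOV3, 4.46 in SKOV3_TR, 0.784 in OV2008 and 2.9 in OV2008_C13. With QC it lay at 8.33 CPM in HeyA8, 5.39 in HeyA8_MDR, 1.68 in SKOV3, 8.91 in SKOV3_TR, 10.3 in OV2008 and 17 in OV2008_C13. All 6 lines were higher, most of all the OV2008 lines. H2BC11 lay with vehicle at 3.24 CPM in HeyA8, 1.92 in HeyA8_MDR, 0.544 in SKOV3, 2.16 in SKOV3_TR, 1.62 in OV2008 and 2.73 in OV2008_C13. Its QC libraries were at 8.55 CPM in HeyA8, 4.5 in HeyA8_MDR, 0.727 in SKOV3, 3.18 in SKOV3_TR, 10.2 in OV2008 and 13 in OV2008_C13. Again 6 of 6 lines were higher, with SKOV3 resting on 13 and 16 counts.

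The fitted change was 1.59 for H2AC11 (SE 0.361, unadjusted p = 0.000802) and 1.48 for H2BC11 (SE 0.308, unadjusted p = 0.000393), both with an adjusted p of 0.141, edgeR's quasi-likelihood test. Each of these promoters has the octamer, and it is the same octamer, at chromosome 6 position 27132835, found 47 bases before the start of H2BC11 and 208 bases before that of H2AC11, outside the stretch printed for H2AC11. There are 9 such divergent H2A and H2B pairs among the members, 194 to 248 bases apart, and both genes were tested in 4 of them. H2AC6 and H2BC4 changed in the same direction in 5 of 6 lines, H2AC20 and H2BC21 in 5 of 6, and H2AC13 and H2BC13 in 3 of the 4 lines where both have a value. Levels within a pair could be far apart: per kilobase of the shortest transcript, H2AC6 had 1.12e+04 counts over the 12 libraries and H2BC4 1.68e+03, and H2BC15 had 784 while H2AC15 had 0. As a description, 9 of the 12 tested members with an octamer and 7 of the 14 without one rose. These counts include members that did not pass the filter on the vehicle libraries alone.

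H4C8 (chr6:26285126-26285534) encodes histone H4 and had a fitted change of 1.80 (SE 0.440, unadjusted p = 0.0014, adjusted p = 0.152 by edgeR). It lay with vehicle at 3.01 CPM in HeyA8, 1.35 in HeyA8_MDR, 1.3 in SKOV3, 0.65 in SKOV3_TR, 1.06 in OV2008 and 2.66 in OV2008_C13. With QC it lay at 12.7 CPM in HeyA8, 6.58 in HeyA8_MDR, 1.41 in SKOV3, 0.371 in SKOV3_TR, 9.52 in OV2008 and 17.4 in OV2008_C13. The QC libraries of the HeyA8 and OV2008 families all lay above the 6 vehicle libraries, and those of the SKOV3 family lay within their range or below it. Annotated genes, 3 in number, overlap H4C8 on the opposite strand, and the strand setting of the counting is not given in the sources used here, so reads of either strand cannot be told apart. H2BC5 is likewise overlapped on the opposite strand, and H2AC6, H2BC5 and H3C6 by annotated genes on their own strand. H4C9 lies within the RefSeq span of H2BC12, chr6:27138293-27146858, which is on the opposite strand.

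H2BC5 (chr6:26158121-26171349) encodes an H2B. Its vehicle levels were 11 CPM in HeyA8, 11.1 in HeyA8_MDR, 1.8 in SKOV3, 4.05 in SKOV3_TR, 1.9 in OV2008 and 5.33 in OV2008_C13. Its QC levels were 29.6 CPM in HeyA8, 35.3 in HeyA8_MDR, 1.23 in SKOV3, 5.14 in SKOV3_TR, 9.48 in OV2008 and 20.6 in OV2008_C13. It was higher in every line but SKOV3, with a fitted change of 1.27 (SE 0.310, unadjusted p = 0.00139, adjusted p = 0.152, edgeR's quasi-likelihood test).

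H2BC21 is the H2B gene of chromosome 1 with the most counts (chr1:149884459-149886682), and its single annotated transcript runs 1729 bases past the stem-loop. With vehicle it lay at 13.3 CPM in HeyA8, 15.2 in HeyA8_MDR, 3.35 in SKOV3, 5.29 in SKOV3_TR, 1.57 in OV2008 and 3.46 in OV2008_C13. With QC it lay at 35 CPM in HeyA8, 24.6 in HeyA8_MDR, 3.31 in SKOV3, 7 in SKOV3_TR, 7.63 in OV2008 and 18.4 in OV2008_C13. SKOV3 was level and the other lines were higher, and the fitted change was 1.18 (SE 0.302, unadjusted p = 0.002, adjusted p = 0.156, edgeR's quasi-likelihood test).

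H2AC6, H2BC12, H3C6 and H4C9 had the highest mean level of their types. H2AC6 (chr6:26124172-26124690) went from 32 to 51.2 CPM in HeyA8, 15.1 to 29 in HeyA8_MDR, 6.23 to 9.12 in SKOV3_TR, 3.92 to 23.9 in OV2008 and 12.4 to 42.4 in OV2008_C13, and from 10.1 to 7.4 in SKOV3. Its fitted change was 1.0 (SE 0.306, unadjusted p = 0.00642, adjusted p = 0.18, edgeR's quasi-likelihood test). H2BC12 (chr6:27138293-27146858) went from 22.6 to 30.7 CPM in HeyA8, 15.6 to 31.3 in HeyA8_MDR, 4.58 to 9.28 in SKOV3_TR, 9.24 to 30.4 in OV2008 and 18.4 to 30.8 in OV2008_C13, and from 1.72 to 1.18 in SKOV3. Both genes thus had SKOV3 as the exception, and H2BC12 rose by a fitted 0.80 (SE 0.224, unadjusted p = 0.00358, adjusted p = 0.169 by edgeR). Only 42.8% of its 50-base stretches are absent from other genes.

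H4C9 (chr6:27139282-27139678) went from 10 to 15.8 CPM in HeyA8, 5.4 to 12.2 in HeyA8_MDR, 5.29 to 8.32 in SKOV3_TR, 4.76 to 13.7 in OV2008 and 8.72 to 17.6 in OV2008_C13, and from 1.42 to 0.954 in SKOV3. It rose by 0.81 (SE 0.233, unadjusted p = 0.00431, adjusted p = 0.175, edgeR's quasi-likelihood test). H3C6 (chr6:26224178-26227473) did not pass the threshold, with a fitted change of 0.75 (SE 0.374, unadjusted p = 0.0671, adjusted p = 0.362 by edgeR). It went from 5.41 to 6.76 CPM in HeyA8, 4.78 to 7.7 in HeyA8_MDR, 0.768 to 0.954 in SKOV3_TR, 0.56 to 3.75 in OV2008 and 2.53 to 8.21 in OV2008_C13, and from 7.15 to 4.09 in SKOV3.

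**Figure D3:**
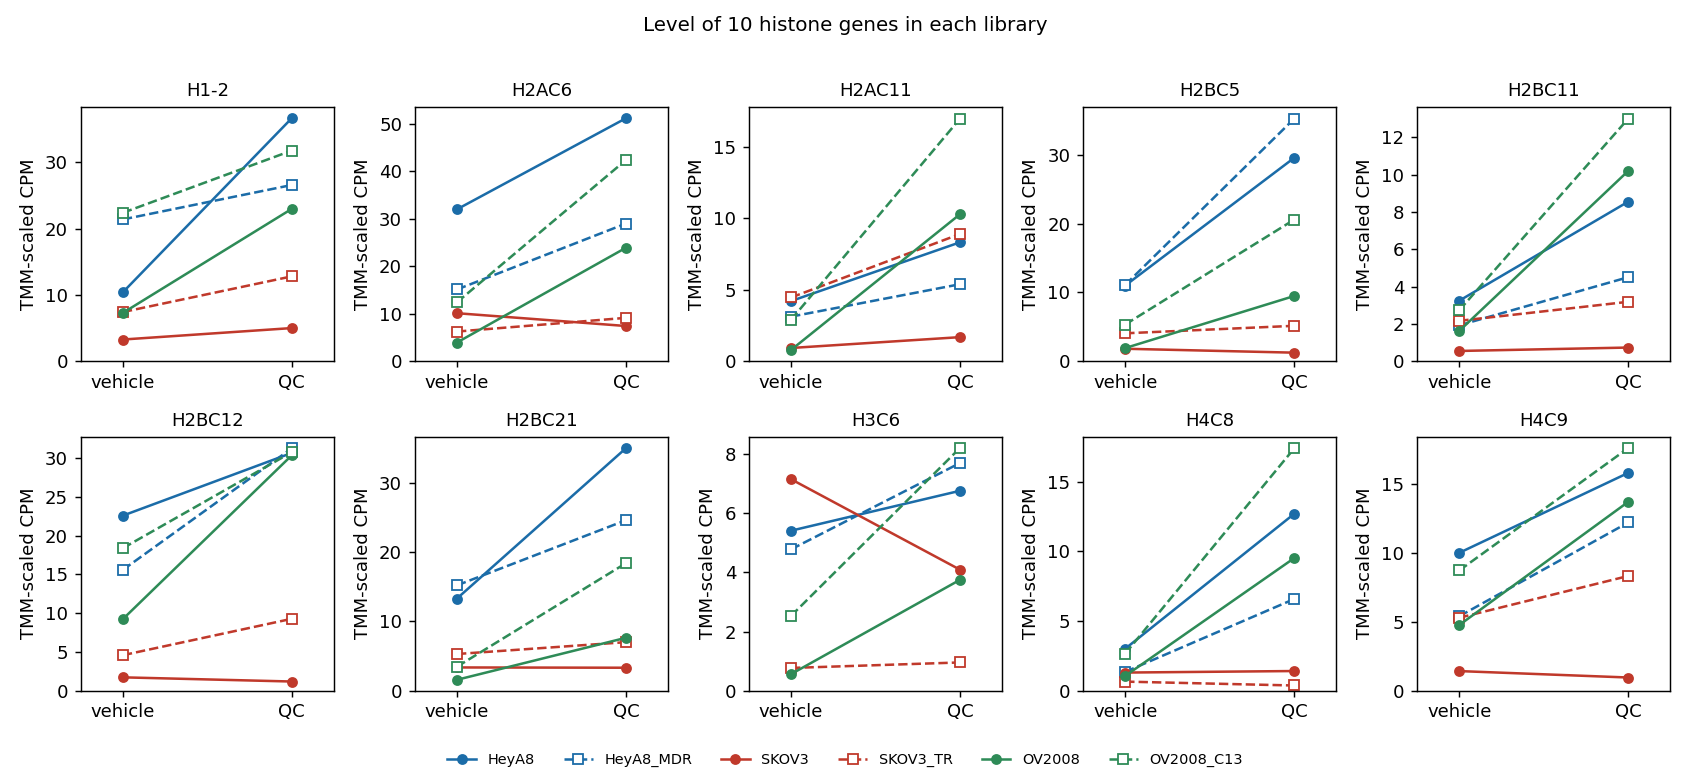
TMM-scaled CPM (vertical axis, linear from 0) of 10 members with vehicle and with QC in each cell line, 1 library per point; filled circles are sensitive and open squares resistant lines. In most panels the lines of the HeyA8 and OV2008 families climb. SKOV3 is higher with QC for H1-2 (3.26 and 4.99 CPM), level for H2BC21 (3.35 and 3.31 CPM) and lower for H3C6 (7.15 and 4.09 CPM).

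Without HeyA8 the fitted changes of these 10 members ran from 0.77 for H1-2 to 1.74 for H2AC11 and H4C8. The 9 that rose over 6 lines had an unadjusted p of 0.00813 or less and an adjusted p of 0.245 or more (edgeR's quasi-likelihood test). Of all genes, 6.62% rose in this fit. The 10 were chosen by p or level with the same libraries included, so this is not a separate test of them.

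By type, 1 of 2 tested H1 genes rose, 4 of 5 H2A, 8 of 12 H2B, 1 of 3 H3 and 3 of 5 H4, and 0 of each fell. H2BC6 and H4C14 had large fitted changes on few counts, 1.82 (SE 0.549) and 1.73 (SE 0.634), but neither passed the filter on the vehicle libraries alone. Nor did H2AC13, which also rose, and the counts by type and by set in this paragraph include these members. H4C14 has only 2.45% of its 50-base stretches to itself, since other H4 genes are almost identical. Of the members that did not pass, H2BC13 had the lowest value, -0.14 (SE 0.556), and H4C16, which lies alone on chromosome 12, and H3C8 were at 0.08 (SE 0.338) and 0.23 (SE 0.457). Among tested members with a long form in GENCODE, 9 of 13 rose, with a median of 1.18, and among those without one, 8 of 14 rose, with a median of 0.88. Among those with at least 90% of their 50-base stretches to themselves, 10 of 16 rose, and among the rest 7 of 11 did.

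Line by line, the number of the 27 tested members at least 2-fold higher with QC was 18 in OV2008, against 9.86% of all 18720 tested genes, and 16 in OV2008_C13, against 8.24%. It was 12 in HeyA8 (10.2% of all genes), 10 in HeyA8_MDR (7.12%), 4 in SKOV3 (4.15%) and 3 in SKOV3_TR (3.64%). The median log2 ratio of these members was 1.71 in OV2008, 1.17 in OV2008_C13, 0.96 in HeyA8, 0.77 in HeyA8_MDR, 0.41 in SKOV3_TR and 0.04 in SKOV3. These values compare 1 library with 1 library and have no test. They include members that did not pass the filter on the vehicle libraries alone, and were not recounted without those. Where 1 library had 0 counts the fold is a bound against 3 counts: H2AC13 was at least 9.18-fold and H2BC18 at least 8.4-fold higher with QC in OV2008, and H2BC18 was at least 5.39-fold lower in SKOV3_TR, from 29 counts to 0. The medians did not move with these values at their bound.

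**Figure D4:**
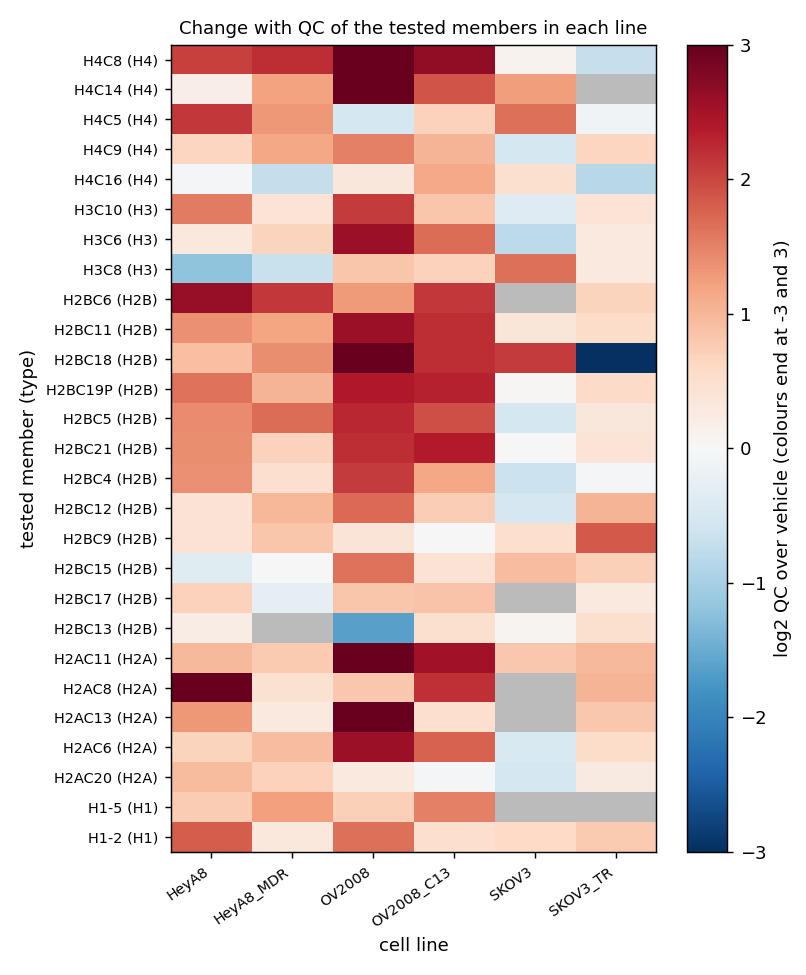
Log2 ratio of QC over vehicle (colour, red higher and blue lower with QC, cut at -3 and 3) for the 27 tested members (rows, by histone type) in the 6 lines (columns, by family), with a prior count of 2; grey marks lines with 3 counts or fewer in both libraries. The columns of OV2008 and OV2008_C13, with medians of 1.71 and 1.17, are the reddest, and the SKOV3 column, with a median of 0.04, is mixed.

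In sensitive lines 10 of the 27 tested members rose and 0 fell, against 3.55% of all genes that rose, and the median was 1.21. In resistant lines 10 of 27 rose and 0 fell, against 3.43%, and the median was 0.92. Among the 20 members that pass on the vehicle libraries alone, 9 rose in sensitive lines, against 3.28% of such genes, and 9 in resistant lines, against 3.59%. The fits share 1 estimate of the spread, and 0 members had an adjusted p under 0.05 in either group (edgeR's quasi-likelihood test). DESeq2 gave 1 in sensitive and 0 in resistant lines. H2AC11, H2BC5, H2BC11, H2BC19P, H2BC21 and H4C8 were called in both groups. H1-2, H2AC13, H2BC4 and H3C10 were called in sensitive lines only, and H2AC6, H2BC6, H2BC12 and H4C9 in resistant lines only. A call in 1 group only is not a difference between groups: H2AC6 changed by 0.90 in sensitive and 1.10 in resistant lines. H2AC13 and H2BC6 did not pass the filter on the vehicle libraries alone.

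These group counts rest on few lines. Without OV2008, 2 of 27 members (7.41%) rose in sensitive lines, against 2.31% of all genes. Without SKOV3, 16 of 28 rose, against 5.26%, and without HeyA8, 7 of 27, against 2.08%. In resistant lines, 2 of 26 members (7.69%) rose without OV2008_C13, against 4.1% of all genes, and 3 of 27 (11.1%) without HeyA8_MDR, against 1.23%.

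Tested as the difference itself, H1-2 was the 1 member of 27 whose response differed between the groups, with a log2 change 0.86 smaller in resistant lines (-0.86, SE 0.367, unadjusted p = 0.0371, adjusted p = 1, edgeR's quasi-likelihood test). By this rule 0.593% of all genes had a smaller change in resistant lines. The H1-2 change was 1.4 (SE 0.268) in sensitive lines and 0.53 (SE 0.254) in resistant lines. The call was lost when any 1 of 4 lines was left out: the difference was then -0.63 without HeyA8, -0.76 without HeyA8_MDR, -0.73 without OV2008 and -0.85 without OV2008_C13. Without OV2008 the 1 member called was H2AC6, with a larger change in resistant lines. The median difference over the 27 members was -0.05.

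With vehicle alone, H1-2 was the 1 of 20 tested members that differed between resistant and sensitive lines, higher by 1.29 in resistant lines (SE 0.408, unadjusted p = 0.0209, adjusted p = 0.975 by edgeR), and 1.9% of the 16091 genes tested were higher by this rule. The call was lost without the HeyA8 family, at 1.41 (unadjusted p = 0.0663, edgeR), and without the OV2008 family, at 1.15 (unadjusted p = 0.106, edgeR). The vehicle libraries of the resistant lines were above those of their partners in all 3 families, 21.4 against 10.4 CPM, 7.41 against 3.26 CPM and 22.4 against 7.28 CPM. These are the same vehicle libraries that enter its QC changes above. The other 19 members were not called, and the median over the 20 was 0.72 against 0.011 for all genes.

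The lines of the SKOV3 family responded less than those of the other 2 families, a contrast added after the values per line had been seen. The fit has a QC effect per family, so its p-values measure the spread between the 2 lines within a family. They do not measure the spread between families, and SKOV3 is 1 family. In this contrast 9 of the 27 members had a smaller change in the SKOV3 family and 0 a larger one, against 5.12% of all genes with a smaller change (edgeR's quasi-likelihood test, unadjusted p under 0.05), and 0 had an adjusted p under 0.05, the smallest being 0.194. DESeq2 gave 4 members with an adjusted p under 0.05, as had 237 of all genes tested. The median difference was -1.01, and -0.007 over all genes. H4C8 differed by -2.77 (SE 0.475, unadjusted p = 0.000176, adjusted p = 0.194 by edgeR), H2BC5 by -1.85 (SE 0.356), H2BC21 by -1.49 (SE 0.332) and H2AC6 by -1.43 (SE 0.354). H1-2 differed by -0.35 (SE 0.462, unadjusted p = 0.469, adjusted p = 0.873 by edgeR). Leaving out 1 line leaves its family with 1 line, so counts of members called in such fits are not given.

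The genes that make, process, carry and degrade histone mRNA were examined as lists written from general knowledge, over the 6 lines and by the same rule (7.99% of all genes up and 7.18% down). The 12 tested genes listed as replication-independent histones had a median log2 change of 0.20. H2AJ, an H2A variant, rose by 0.63 (SE 0.133, unadjusted p = 0.000469, adjusted p = 0.141, edgeR's quasi-likelihood test). H1-10, a linker histone variant, fell by 0.53 (SE 0.191, unadjusted p = 0.0172, adjusted p = 0.228, edgeR).

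Of 8 genes of histone transcription, such as NPAT, E2F1 and CCNE1, 0 changed, and the smallest p belonged to POU2F1, the octamer-binding factor Oct-1, at 0.25 (SE 0.132), and HINFP, the H4 promoter factor, at 0.23 (SE 0.127). Of 12 genes of histone 3′ end processing, 1 rose, the CPSF subunit CPSF2, by 0.27 (SE 0.112), and ZNF473 was at -0.29 (SE 0.167). The median was -0.02. SLBP, the stem-loop binding protein, was not called, with a fitted change of -0.23 (SE 0.147). It went from 93.9 to 61.5 CPM in OV2008 and from 143 to 83 CPM in OV2008_C13, and lay between 37.5 and 58.4 CPM in the libraries of the other 4 lines. The log2 ratio was -0.13 in HeyA8, 0.06 in HeyA8_MDR, -0.18 in SKOV3 and 0.29 in SKOV3_TR.

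Of 8 genes of histone mRNA decay, 1 rose, the exonuclease XRN1, by 0.43 (SE 0.168), and the terminal uridylyltransferase TUT7 was at 0.31 (SE 0.146). Of 12 histone chaperones tested, the acetyltransferase HAT1 rose by 0.52 (SE 0.199) and the CAF-1 subunit CHAF1B fell by 0.34 (SE 0.144).

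Of 25 genes of S phase and DNA replication, 0 rose and 1 fell over the 6 lines. This was the licensing factor CDT1, at -0.62 (SE 0.132, unadjusted p = 0.000473, adjusted p = 0.141, edgeR's quasi-likelihood test), and the polymerase subunit POLD1 followed at -0.31 (SE 0.145). The median of the 25 was -0.12, with line medians of -0.43 in OV2008_C13, -0.35 in SKOV3, -0.29 in OV2008, -0.00 in HeyA8, 0.10 in HeyA8_MDR and 0.45 in SKOV3_TR. The OV2008 lines, which had the largest histone ratios, thus had S phase medians under 0. In bulk RNA, a change in the share of cells in S phase and a change of RNA per cell cannot be told apart.

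Other RNAs without a poly(A) tail were also followed, but their counts are too few to measure tail-less RNA in each library. RN7SK had 1 count, in the SKOV3_TR QC library, and RMRP had 0 in all 12 libraries. Of 34 listed small nuclear, nucleolar and other such RNAs, 25 were paired with an ID and 3 passed the filter, and 0 of the 3 changed (SNORA73B at -0.33, SE 0.408, and SCARNA9 at -0.03, SE 0.462). The 25 summed to between 2.32 and 4.98 CPM in the 12 libraries. The log2 ratio of their sum was -0.36 in HeyA8, 0.76 in HeyA8_MDR, -0.65 in SKOV3, -0.00 in SKOV3_TR, 0.13 in OV2008 and -0.33 in OV2008_C13, against 1.03, 0.89, -0.11, 0.64, 1.96 and 1.34 for the histone sum in the same order. The part of RNA selection in the histone result was not tested.

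**Figure D5:**
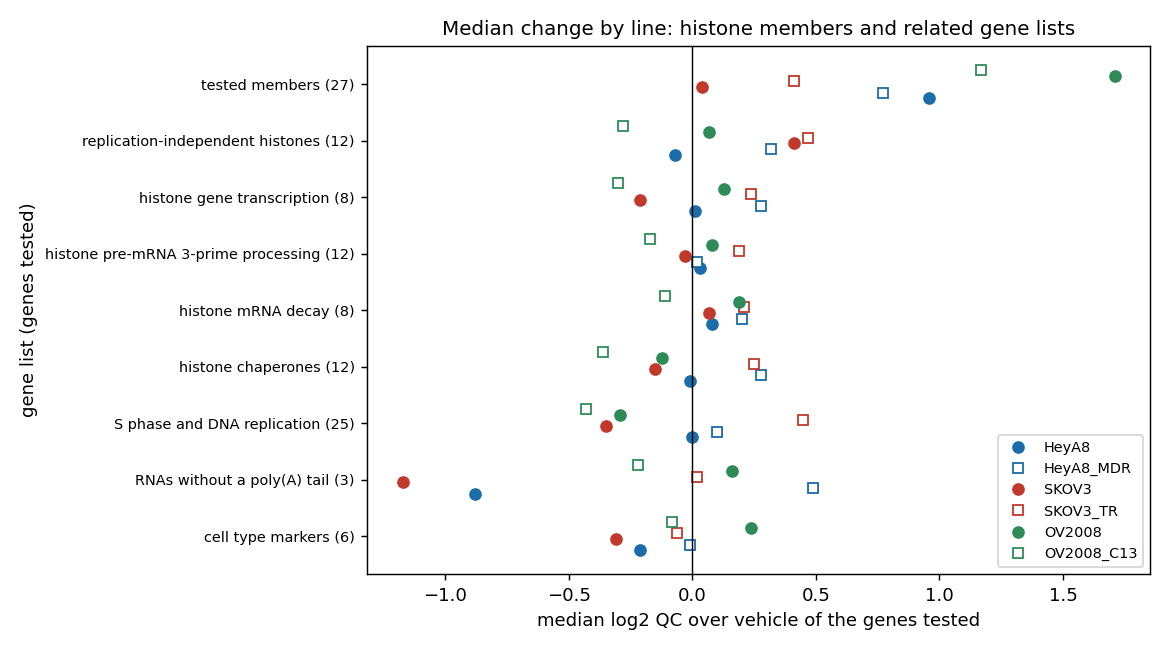
Median log2 ratio of QC over vehicle (horizontal axis) of the tested genes of each list (vertical axis, number of genes in brackets) in each of the 6 lines, 1 point per line; filled circles are sensitive and open squares resistant lines. The histone members run from 0.04 in SKOV3 to 1.71 in OV2008, and the S phase list from -0.43 to 0.45.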

How the data were processed

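Poly(A) RNA from 6 cell lines, described by the study as ovarian cancer lines, was sequenced with vehicle or QC in 12 libraries prepared with the TruSeq RNA kit. The authors deposited raw counts per Ensembl gene, without normalization. The study's methods name TopHat, hg19 and HTSeq, whereas the submitters' processing notes name STAR 2.7.3a, HTSeq 0.6.1p1 and GRCh38.p13. Which of them made the table was not settled, and the strand setting and the handling of reads that fit several genes are not given in the sources used here. Coordinates are those of RefSeq on GRCh38.p14, not of the files. Libraries held 17782556 to 30585059 counts, and the intervals cover counting error only.

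Symbols were paired with 41085 of the 60669 gene IDs, and the others held 0.457% of the counts. RefSeq symbols of the rule with no paired ID, 7 in all (H2AC18, H2AC19, H2BC7, H2BC8, H2BC20P, H4C2 and H4C6), were not analysed here. The members and the gene lists were chosen with earlier results of these data known.

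The analysis used edgeR 4.0.16 under R 4.3.3. Genes were kept by filterByExpr (minimum count 10, minimum total 15), scaled by TMM and fitted with glmQLFit. The fits had a term per cell line and QC effects over all lines, per group or per family. The vehicle comparison used the 6 vehicle libraries with a family term. Tests were two-sided, with Benjamini-Hochberg adjustment over all genes. Type ratios are log2 ratios of summed counts with a prior count of 2, with exact 95% intervals (scipy 1.17.1). The pairing of libraries comes from the shared cell line: deviations from the treatment means correlated at 0.893 to 0.929 within lines. Genes named in full are the 6 members with the smallest p over 6 lines and the member with the highest mean CPM of each type, and of each list the 2 genes with the smallest p, except that 1 item is not reported here, nor the count of calls of its list. H1-10, SLBP, H2AX and the members and markers named for single values were chosen after their values were seen, and so was the contrast of families. A further list, 5 cluster histones outside the rule, had 2 paired genes and 0 that passed the filter. Alternatives were DESeq2 1.42.0, other scalings and filters, no cell line term and leaving out lines. The scripts were tested on simulated data. Plots were drawn with matplotlib 3.10.9.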

Additional observations from a re-analysis of the deposited data

Results flagged for a closer look

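H2AC13 stood apart in OV2008, where its log2 ratio of QC over vehicle was 4.26, against 0.30 to 1.29 in the other 5 lines. Among these, SKOV3 had only 2 and 3 counts. H2AC13 did not pass the filter on the vehicle libraries alone, and 36.5% of its 50-base stretches are absent from other genes. In OV2008 the vehicle library had 0 counts and the QC library 35, so the ratio depends on the prior count. Against 3 counts it was at least 9.18-fold. In all, 33 sets of values were examined in this way, and chance alone marks about 1 in 20.

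H1-2 differed in its QC response between resistant and sensitive lines, by -0.86 (unadjusted p = 0.0371, adjusted p = 1, edgeR's quasi-likelihood test). Its vehicle level was higher in the resistant line of all 3 families.

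In the SKOV3 family the QC change was smaller than in the other 2 families for 9 members, by -2.77 for H4C8, -1.85 for H2BC5, -1.67 for H3C6, -1.59 for H2BC4, -1.58 for H2BC19P, -1.49 for H2BC21, -1.43 for H2AC6, -1.37 for H2BC11 and -1.01 for H2AC11 on the log2 scale. Their unadjusted p ran from 0.000176 for H4C8 to 0.0411 for H2AC11, and their adjusted p from 0.194 to 0.466 (edgeR's quasi-likelihood test). The contrast was chosen after the line values were seen, and its p-values measure the spread within families, not between them.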

How the results depend on the processing

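Counts of members with an unadjusted p under 0.05 moved by more than 1.5 times in these cases. Without the cell line term that pairs the libraries (no replicate block) 5 members were called over 6 lines in place of 17. Of all genes 0.411% then rose, in place of 7.99%. In this setting 0 members were called in sensitive lines, 0 in resistant lines, 0 for the difference and 0 with vehicle. With at least 10 counts in every library, 10 of 12 members were called over 6 lines, against 10.3% of all genes up and 9.96% down. With vehicle 2 of 14 were called, against 2.49% up and 2.44% down. Leaving out 1 line at a time gave 12 to 16 over 6 lines, against 5.23 to 7.88% of all genes that rose. It gave 2 to 16 in sensitive lines, against 2.08 to 5.26%, and 2 to 12 in resistant lines, against 1.23 to 4.1%. It gave 0 to 1 for the difference and, by family, 0 to 1 with vehicle (0 without the HeyA8 family). The same number need not be the same gene: H1-2 was not called for the difference without OV2008, nor with vehicle without the OV2008 family. Adjusted calls depended on tool and filter: over 6 lines edgeR gave 0, DESeq2 9 and edgeR without a filter 12 of 58. Among all genes the same settings gave 0, 518 and 791. The type means moved by less than 1 SD under the scalings, prior count and choices of members tried. Sums without pseudogenes, and over members with at least 90% unique stretches, were added after seeing the data, and the latter put H4 at 0.74 in place of 1.01.

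Among members that had not passed the threshold, some turned direction when 1 line was left out. Over 6 lines H2BC13 ran from -0.41 to 0.21 (the latter without OV2008), and H4C16 from -0.18 without OV2008_C13 to 0.25, with -0.01 without SKOV3. In sensitive lines H2AC20 ran from -0.08 to 0.74, H2BC13 from -1.06 to 0.21, H3C6 from -0.23 to 1.31, and H3C8 from -0.30 to 1.31, with -0.18 without SKOV3. In resistant lines H2BC13 ran from -0.15 to 0.53 and was at -0.13 with DESeq2, H2BC18 ran from -0.51 to 1.94, with -0.07 without HeyA8_MDR, H3C8 from -0.18 to 0.55 and H4C16 from -0.83 to 0.24. The cause was not tested. With 1 library per line and few counts per member, counting error is large for most members, and a change within a line has no replicate.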

Other observations

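H2AX, the H2A variant that is phosphorylated at DNA breaks, was listed here with the replication-independent histones. It was lower with QC in the HeyA8 and OV2008 families and higher in the SKOV3 family. It went from 120 to 41.7 CPM in HeyA8, from 61.2 to 27.5 in HeyA8_MDR, from 272 to 94.4 in OV2008 and from 146 to 53 in OV2008_C13. In SKOV3 it went from 51.9 to 118 CPM and in SKOV3_TR from 96.9 to 134 CPM. The QC change in the SKOV3 family was larger by 2.24 (SE 0.246, unadjusted p = 4.03e-06, adjusted p = 0.0564, edgeR's quasi-likelihood test), while over the 6 lines its change was -0.70 (SE 0.342, unadjusted p = 0.0619, edgeR). H1-10 also had a larger change in the SKOV3 family, by 1.09 (SE 0.229, adjusted p = 0.23, edgeR). The p-values of the family contrast measure the spread within families only. H2AX and H1-10 were singled out after their values were seen, and the cause of these patterns was not tested.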
